A study of Homo sapiens with 18 samples.

Results

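The genes described are 7 cancer-testis antigen genes of the human X chromosome: MAGEA1, MAGEA4, MAGEA6, MAGEA10, MAGEC2, PAGE1 and SPANXB1. They are 7 of the 12372 genes that the platform annotation names for the probe sets of the deposited table. They were followed by every probe set in that table annotated to them, 9 of 23416. They were chosen because their levels differed between groups, so their own values are given as a description and without a test. Of the 9 probe sets, 7 carry a single gene name. The other two are shared, one between MAGEA6 and MAGEA3 and one between SPANXB1, SPANXA1, SPANXA2 and SPANXC. Members of these families are so alike in sequence that a probe set with a single name may also match a relative.

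Cancer-testis antigens are proteins made in germ cells of the testis and in few other normal tissues, and again in many tumours, melanoma among them. Most lie on the X chromosome in families of near-identical copies, and their promoters are kept silent in most normal cells by DNA methylation. Peptides of the MAGE-A proteins shown on tumour cells are recognised by cytotoxic T cells, and inside the cell MAGE proteins bind and direct RING ubiquitin ligases.

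Affymetrix 3′ expression arrays were run on RNA of 2 human melanoma lines, C32 and A375M2, which derives from A375 and is metastatic. All cells had been transduced with lentivirus. In A375M2 the groups were short hairpin RNAs (shRNAs) against FHL2, shRNAs against NFYA, full-length His-tagged PMEL, and a GFP vector. In C32 they were shRNAs against FHL2, and GFP. Each of the 6 groups had 3 arrays. FHL2 is a LIM-domain scaffold protein, NFYA is part of the NF-Y complex that binds CCAAT boxes, and PMEL forms the fibrils of melanosomes. The FHL2 shRNAs were a pool of 3 constructs under puromycin, and the brightest GFP-positive cells were sorted. PMEL was driven by the CMV promoter from a vector with an eGFP marker and was selected with blasticidin. Neither the NFYA constructs nor the GFP vector of the control arrays is specified in the sources used here. The A375M2 samples came from 3 separate experiments. This is not stated for C32, whose arrays may not be separate experiments. Every p-value below rests on a spread pooled over the arrays used from all 6 groups of both lines. No p-value therefore measures the spread between A375M2 experiments, or between C32 arrays, on its own.

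The promoters of 5 of the 7 genes are printed because the families differ in short motifs close to their starts. Each line gives the 120 bases before the annotated start, 5′ to 3′ on the gene's strand (RefSeq, GRCh38.p14). Capitals mark 1 of 3 motifs. GGATGTG holds the core bound by ETS factors. The motif GCCAAT is a box of the kind that NF-Y binds. An E-box reads CACGTG. The intervals are chrX:151912354-151912473 on the plus strand for MAGEA4, chrX:152769690-152769809 on the minus strand for MAGEA6, chrX:142205291-142205410 on the minus strand for MAGEC2, chrX:49695985-49696104 on the minus strand for PAGE1, and chrX:141002474-141002593 on the plus strand for SPANXB1.
MAGEA4: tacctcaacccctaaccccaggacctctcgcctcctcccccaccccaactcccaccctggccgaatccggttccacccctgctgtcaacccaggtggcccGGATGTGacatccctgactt
MAGEA6: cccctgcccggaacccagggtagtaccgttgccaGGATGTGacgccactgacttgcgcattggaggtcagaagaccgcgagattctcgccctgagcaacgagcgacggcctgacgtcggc
MAGEC2: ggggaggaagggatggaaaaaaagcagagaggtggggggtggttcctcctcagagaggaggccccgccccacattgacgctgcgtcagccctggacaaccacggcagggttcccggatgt
PAGE1: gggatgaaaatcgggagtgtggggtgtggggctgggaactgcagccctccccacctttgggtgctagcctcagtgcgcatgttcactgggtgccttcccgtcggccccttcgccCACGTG
SPANXB1: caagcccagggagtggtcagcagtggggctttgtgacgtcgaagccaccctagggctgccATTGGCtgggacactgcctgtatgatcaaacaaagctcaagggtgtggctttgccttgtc

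The 3 motifs were chosen after these sequences were seen and were searched on both strands of the 250 bases before each start. GGATGTG began 20 bases before the MAGEA4 start shown, was present before 5 of 5 annotated MAGEA4 starts, and began 86 bases before the MAGEA6 start. It was found before 10 of 10 MAGEA-family genes in the promoter table, against 3.52% of all 35116 promoters. Families are counted by gene, with a match before any of its starts, while the share of all counts each start. GCCAAT lay on the reverse strand of SPANXB1, 60 bases before the start, where the gene's strand reads ATTGGC. It was found before 5 of 5 SPANXA to SPANXD genes, 4 of 4 SPANXN genes and 7 of 7 SSX genes, against 13.8% of all promoters. CACGTG ended at the PAGE1 start and was found before 4 of 6 PAGE genes, against 6.34% of all promoters. The MAGEC2 window held no full match to any of the 3, and neither did the windows of any of 12 GAGE genes. The MAGEC2 window ends in ggatgt, all of GGATGTG but its last base. That base would lie past the window and was not read, so a match across the start is not excluded. CpG dinucleotides in the 250 bases numbered 6 to 14 over the 5 MAGEA4 starts (6 for the one shown), 15 for MAGEA6, 6 for MAGEC2, 9 for PAGE1 and 8 for SPANXB1, against a median of 11 over all promoters. A match describes letters and says nothing of binding.

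Several arrays stood apart. The third C32 GFP array equalled the average of its companions almost exactly: over 16775 probe sets its deviation had an SD of 0.00719 log2, against 0.107 to 0.171 for other arrays. It is left out of every mean and test, so C32 GFP means rest on 2 arrays, and its values are given in brackets. In A375M2, replicate 3 of PMEL and replicate 3 of GFP deviated from their groups as mirror images, with a correlation of -0.998 across probe sets. Without both, no difference of the 7 genes moved by more than 0.14 log2. The A375M2 shRNA arrays shared 302 to 750 exactly equal low values with each other and 0 with the A375M2 PMEL or GFP arrays. For A375M2 shRNA against GFP, and wherever C32 is set against A375M2, array set and group therefore cannot be told apart. Shared low values also split PMEL and GFP: replicate 3 of each shared 0 with replicates 1 and 2 of their groups, which shared 514 to 941 with each other. Both groups hold the same mixture of these sets, so PMEL against GFP spans 2 sets that each hold both groups. Comparisons of shFHL2 with shNFYA, and of C32 shFHL2 with the C32 GFP arrays used, lay within a set. The labels were checked by the targeted genes. FHL2 averaged log2 7.17 in A375M2 shFHL2 and 11.21 in A375M2 GFP, and 5.83 in C32 shFHL2 and 11.08 in C32 GFP. At a first probe set NFYA averaged 5.92 in shNFYA, 7.11 in shFHL2 and 8.0 in A375M2 GFP. At another it averaged 5.02, 6.53 and 8.49 in the same order, a difference of -1.95 for shFHL2 minus GFP. All NFYA probe sets were lower in both shRNA arms than in GFP, with the smallest shNFYA difference at -0.96. PMEL averaged 8.95 in PMEL cells and 5.57 in GFP cells.

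All values below are log2 signals, and values under log2 4 are at the low end of the scale, so differences between groups on either side of it are also given with every value under 4 set to 4 (the floored scale). For genes other than the 7 this is done where it moves the value by over 1.5 times. Levels are compared between groups of a probe set, never between probe sets. In bulk RNA, fewer expressing cells and less RNA per cell cannot be told apart.

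PAGE1, a small acidic protein of the GAGE and PAGE superfamily, was high in a single group. Its probe set read 11.67, 11.72 and 11.73 in A375M2 shFHL2 and 6.42, 5.90 and 6.32 in shNFYA. In PMEL it read 5.82, 5.73 and 5.57, against 5.63, 5.72 and 5.88 in A375M2 GFP. In C32 it read 3.62 in all 3 shFHL2 arrays, against 4.66, 3.70 and (4.20) in C32 GFP. The shFHL2 arrays of A375M2 stood clear of all others, the shNFYA arrays lay just above GFP without overlap, and PMEL overlapped GFP. The difference was 5.96 log2 (62.3-fold) for shFHL2 minus GFP, 0.47 for shNFYA minus GFP and 5.49 (45-fold) for shFHL2 minus shNFYA. In C32 the difference of shFHL2 minus GFP was -0.56, or -0.33 with values under 4 set to 4.

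SPANXB1 belongs to a family of small proteins first described in the nuclei of maturing sperm. Its single-name probe set read 9.38, 9.06 and 9.20 in shNFYA and 5.54, 5.09 and 4.34 in shFHL2. It lay between 2.21 and 2.22 in every PMEL and GFP array of A375M2 and at 2.21 in every C32 array. Both A375M2 shRNA arms were thus above all other arrays, and shNFYA was above shFHL2 without overlap. The difference from GFP was 7.0 log2 in shNFYA and 2.78 in shFHL2, and with values under 4 set to 4 it was 5.22 and 0.99. On that floored scale the shFHL2 difference was under 2-fold at this probe set.

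The shared SPANX probe set gave the same order. It read 9.40, 9.54 and 9.52 in shNFYA and 6.29, 6.18 and 5.95 in shFHL2, with 2.20 to 2.22 in all other arrays. With values under 4 set to 4, the difference from GFP was 5.48 in shNFYA and 2.14 in shFHL2. The difference of shFHL2 minus shNFYA was -3.34 (10.2-fold lower) at this probe set and -4.22 (18.7-fold lower) at the single-name one. PAGE1 and SPANXB1 were thus each highest in a different shRNA arm of the same line.

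MAGEC2, which binds the ubiquitin ligase TRIM28, lay higher in both shRNA arms. Its probe set read 13.18, 13.02 and 13.06 in shNFYA and 12.63, 12.62 and 12.67 in shFHL2. It read 10.54, 10.51 and 10.50 in PMEL, against 10.44, 10.30 and 10.39 in GFP. The 4 groups of A375M2 did not overlap, in the order shNFYA, shFHL2, PMEL and GFP. The difference from GFP was 2.71 log2 (6.55-fold) in shNFYA, 2.26 (4.80-fold) in shFHL2 and 0.14 in PMEL. In C32 it lay at 2.41 in the 3 shFHL2 arrays and at 2.41, 2.25 and (2.33) in GFP, all at the low end of the scale.

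MAGEA10, a MAGE-A antigen, was the only one of the 7 genes whose PMEL arrays differed from GFP by 2-fold or more. Its probe set read 9.86, 9.86 and 9.82 in shFHL2, and 9.82, 9.77 and 9.82 in shNFYA. It read 6.94, 7.0 and 6.92 in PMEL, against 9.03, 9.02 and 9.08 in GFP. The shRNA arms overlapped each other and lay above GFP, while PMEL lay below every other A375M2 array. The difference from GFP was -2.09 log2 in PMEL (4.26-fold lower), or -2.06 without replicate 3 of PMEL and of GFP, and it was 0.80 in shFHL2 and 0.76 in shNFYA. All C32 arrays read 2.17.

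MAGEA1, the tumour antigen by which the MAGE family was found, lay lower in both shRNA arms. Its probe set read 9.23 in all 3 shFHL2 arrays and 9.23, 9.16 and 9.12 in shNFYA. It read 10.89, 10.87 and 10.89 in PMEL, against 10.59, 10.70 and 10.63 in GFP. The shRNA arms touched each other and lay below GFP, and PMEL lay above GFP without overlap. The difference from GFP was -1.41 log2 in shFHL2 (2.66-fold lower), -1.47 in shNFYA (2.78-fold lower) and 0.24 in PMEL. In C32 it read 2.68, 2.68 and 2.81 in shFHL2, against 2.49, 2.44 and (2.47) in GFP, all under 4.

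MAGEA6, which with its close copy MAGEA3 activates TRIM28, lay above log2 8 in every array of both lines. Its single-name probe set read 14.20, 14.21 and 14.17 in shFHL2 and 14.55, 14.45 and 14.47 in shNFYA. It read 14.95, 15.04 and 15.04 in PMEL, against 14.86, 14.98 and 14.87 in GFP. PMEL overlapped GFP, and both shRNA arms lay below GFP without overlap. The difference from GFP was -0.71 in shFHL2 and -0.42 in shNFYA. In C32 it read 8.71, 8.41 and 8.47 in shFHL2, against 8.54, 8.74 and (8.63) in GFP, which overlap.

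The probe set that MAGEA6 shares with MAGEA3 read 13.98, 13.99 and 14.02 in shFHL2 and 14.31, 14.32 and 14.17 in shNFYA. It read 14.83, 14.78 and 14.81 in PMEL, against 14.68, 14.77 and 14.72 in GFP. The order was that of the single-name probe set, with differences from GFP of -0.72 in shFHL2, -0.46 in shNFYA and 0.08 in PMEL, and PMEL did not overlap GFP. In C32 it read 8.36, 8.19 and 8.14 in shFHL2, against 8.95, 8.51 and (8.72) in GFP. These C32 groups did not overlap at the shared probe set, with a difference of -0.50, while at the single-name one they overlapped, with -0.11.

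MAGEA4, known to bind the oncoprotein gankyrin, was high in A375M2 and near the low end of the scale in C32. Its probe set read 14.07, 14.03 and 14.05 in shFHL2, 14.31, 14.04 and 14.00 in shNFYA, 14.15, 14.15 and 14.25 in PMEL, and 13.93, 14.29 and 13.99 in GFP. The shFHL2, shNFYA and PMEL groups each overlapped GFP, with differences from it of -0.02, 0.05 and 0.11. PMEL lay just above shFHL2 without overlap. In C32 it read 2.32, 2.41 and 2.28 in shFHL2, against 2.26, 2.77 and (2.52) in GFP. The C32 groups overlapped as well, and all their values were under 4.

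**Figure D1:**
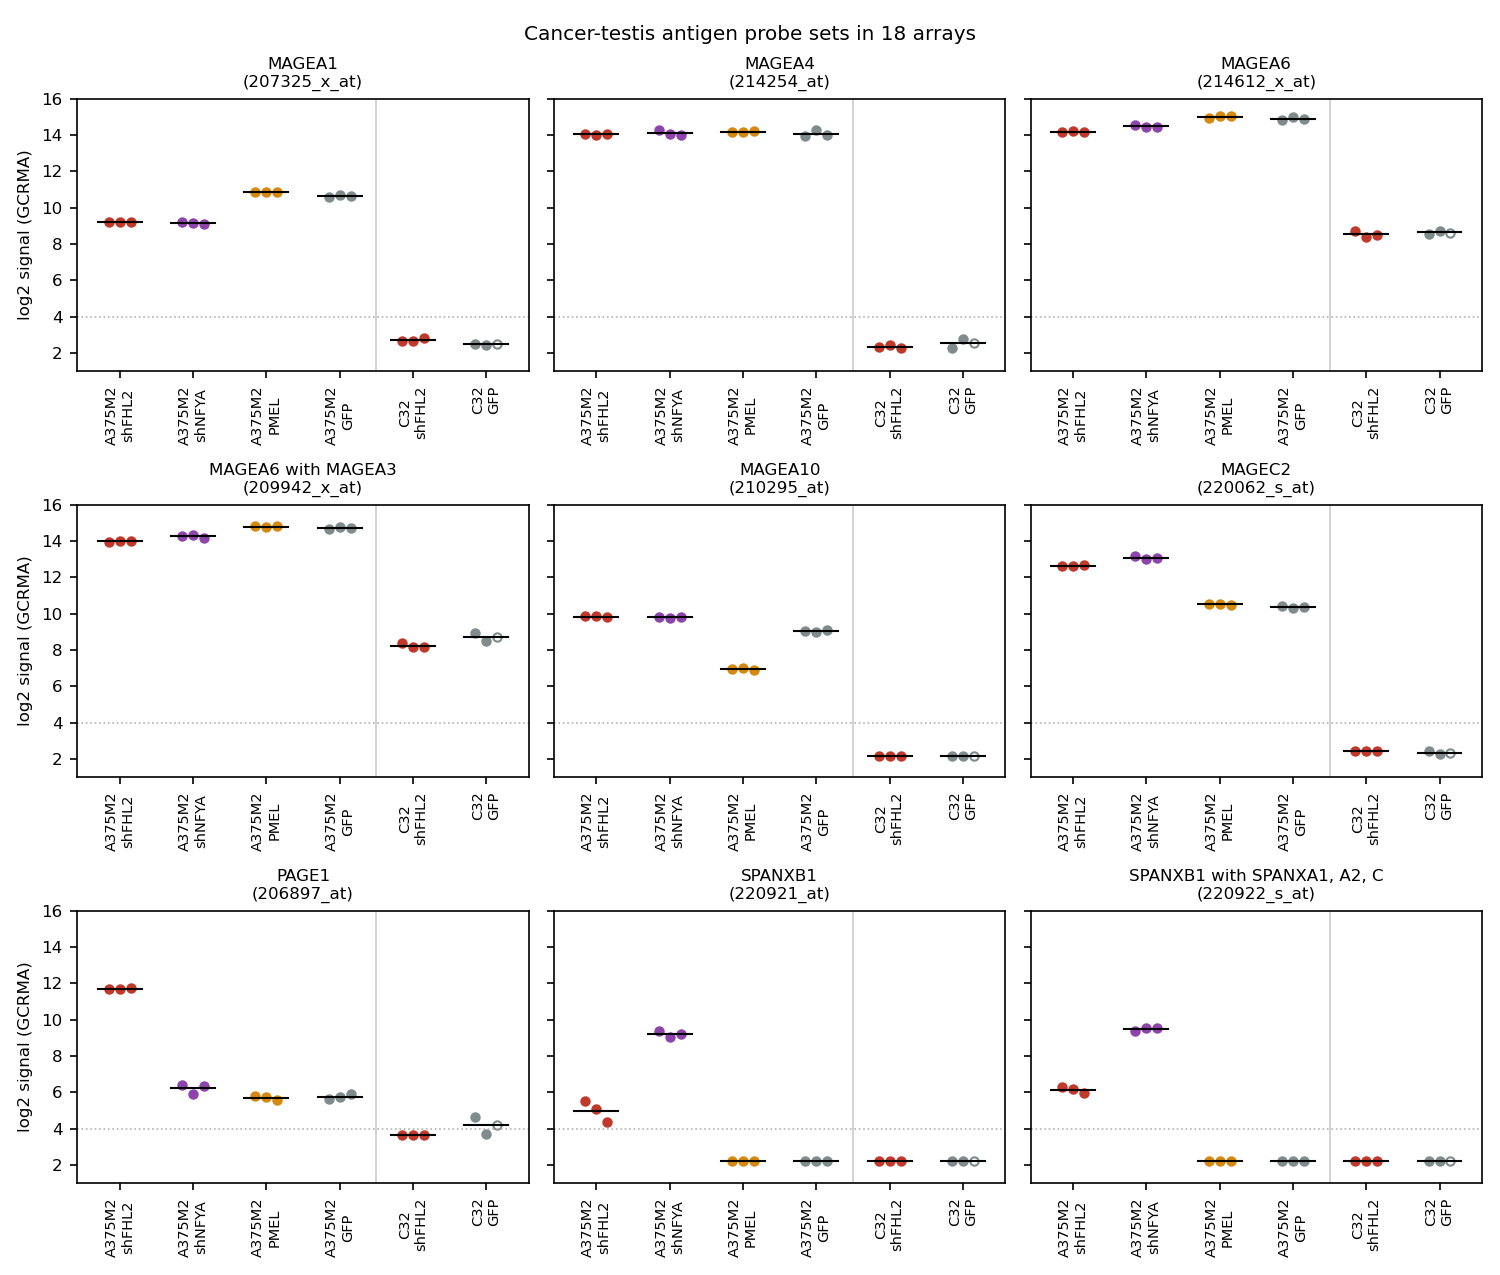
Log2 signal (y axis) of the 9 probe sets of the 7 genes, a panel each, on 18 arrays in 6 groups along the x axis. Points are arrays, lines are group means, the dotted line is log2 4, and the open circle is C32 GFP replicate 3, which no mean uses. PAGE1 is high in A375M2 shFHL2 alone (11.67 to 11.73), SPANXB1 is highest in shNFYA (9.06 to 9.38), and MAGEA10 is lower in PMEL (6.92 to 7.0) than in any other A375M2 group.

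By group, 4 of the 9 probe sets were 2-fold or more higher and 1 was lower in A375M2 shFHL2 than in GFP. In limma's fit with Benjamini-Hochberg adjustment over all 22253 probe sets tested, 15.8% of probe sets were called at an adjusted p under 0.05 and 2-fold or more higher in that comparison and 17.5% lower. With values under 4 set to 4, the higher ones of the 9 numbered 3. In shNFYA, 3 of 9 were higher and 1 lower, beside 18% and 20.2% of all. In PMEL, 0 were higher and 1 lower, beside 0.881% and 1.46%. In shFHL2 against shNFYA, 1 was higher and 2 lower, beside 6.88% and 4.2%. In C32 shFHL2 against C32 GFP, 0 of 9 differed by 2-fold, beside 4.03% higher and 5.02% lower. These shares are given as background and no more is read from them, since the genes were picked on these contrasts. The median difference of the 9 was 0.80 in shFHL2, 0.47 in shNFYA and 0.08 in PMEL, each minus GFP.

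C32 GFP lay 2-fold or more below A375M2 GFP at 7 of the 9 probe sets, beside 22.4% of all probe sets called lower and 21.5% higher. MAGEA4 differed by -11.55 log2, or -10.07 with values under 4 set to 4. MAGEA1, MAGEC2 and MAGEA10 differed by -6.64, -6.38 and -5.05 on the same floored scale. MAGEA6 differed by -6.27 and, at the probe set shared with MAGEA3, by -5.99, and PAGE1 by -1.56, or -1.41 on the floored scale. Both SPANX probe sets were at the low end of the scale in both GFP groups, and no fold is given. The difference between the shFHL2 effects, C32 minus A375M2, was -6.53 for PAGE1 (floored -6.29), -2.18 for MAGEC2 (floored -2.26) and 1.67 for MAGEA1 (floored 1.41). It was -2.78 for the single-name SPANXB1 probe set (floored -0.99) and -3.93 for the shared one (floored -2.14).

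**Figure D2:**
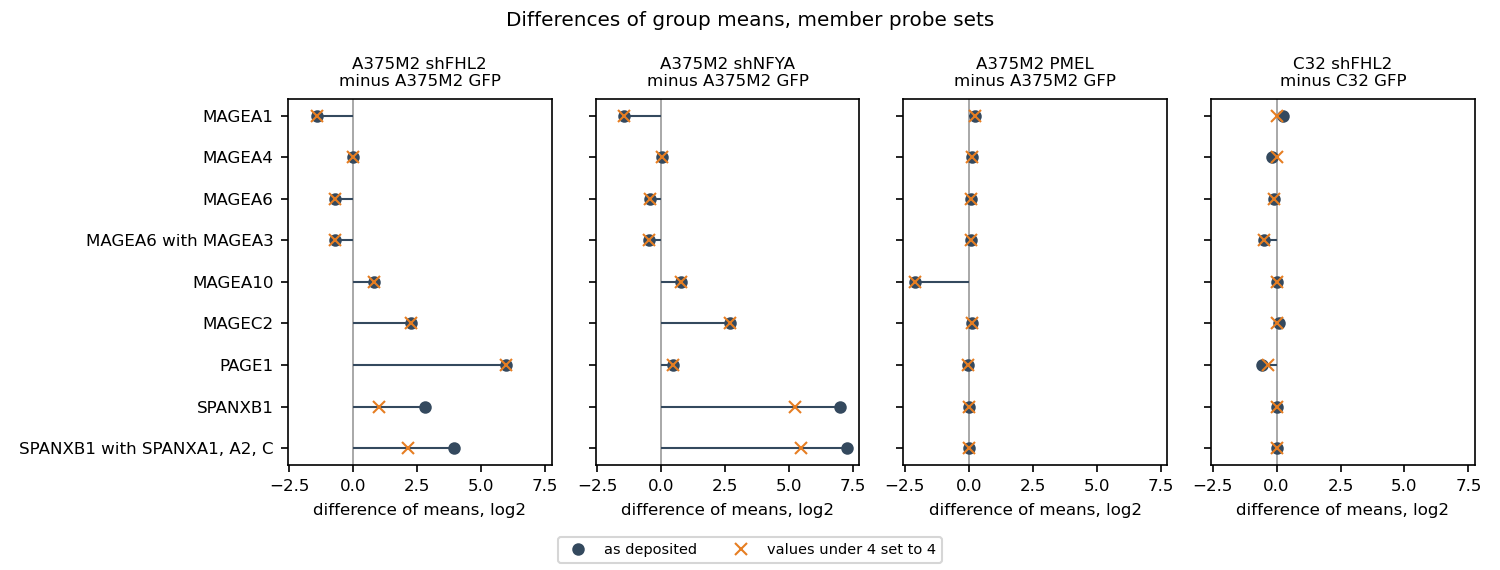
Log2 difference (x axis) of each of the 9 probe sets (y axis) in 4 comparisons, a panel each: A375M2 shFHL2, shNFYA and PMEL minus A375M2 GFP, and C32 shFHL2 minus C32 GFP. Dots use the values as deposited and crosses use values under 4 set to 4, where SPANXB1 in shFHL2 is at 0.99 in place of 2.78. C32 differences lie between -0.56 and 0.26.

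For each gene, the probe sets of other genes with the most similar group means were found by the root mean square (RMS) difference over the 6 centred means. The nearest to MAGEA4 was a CT45A family probe set (RMS 0.0955 log2), followed by INHBA (0.439) and LINC01419 (0.519). The nearest to the shared SPANX probe set were IL7R (0.133), IL1B (0.159) and MMP10 (0.199). IL7R averaged 6.08 in shFHL2, 9.14 in shNFYA, and 2.23 in both PMEL and GFP. The nearest to MAGEA6 were SCUBE3 (0.199), ASPHD1 (0.2) and TIGD1 (0.206), and to MAGEC2 HAPLN1 (0.274), CLMP (0.498) and KYNU (0.59). For MAGEA1 they were a probe set shared by LY75 and CD302 (0.319), CYBRD1 (0.353) and CNTN3 (0.355), and for MAGEA10 CPE (0.399), PTPN22 (0.514) and TGFA (0.557). PAGE1 had no close neighbour: TLR4 (0.927), CUL2 (0.954) and TENM1 (0.975) came nearest.

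Other cancer-testis genes, on X and elsewhere, were measured by 63 tested probe sets. At any size, limma called 52 of the 63 in shFHL2, 55 in shNFYA and 33 in PMEL, each against A375M2 GFP, beside 84.1%, 85.8% and 37.8% of all probe sets. It called 44 in shFHL2 against shNFYA (65.7% of all), 24 in C32 shFHL2 against C32 GFP (59.7%), 50 in C32 GFP against A375M2 GFP (84.4%) and 51 in the interaction (77.9%). Most shares are high for all probe sets, so the counts that follow use 2-fold.

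Those of the X chromosome were measured by 35 of these probe sets. In A375M2 shFHL2, 15 of the 35 rose by 2-fold or more and 2 fell, against the 15.8% and 17.5% of all probe sets given above. Among the 35, VCX2, NXF2, SPANXA and an SSX3 probe set averaged under log2 4 in A375M2 GFP, PMEL and both C32 groups. They passed the filter (log2 4 on 3 or more arrays) through the shRNA arms alone and had little room to fall. The counts of rises here and in shNFYA, and the p-values of these probe sets, are therefore partly set by the filter. Among 603 probe sets of other X-linked genes, 18.9% rose and 13.3% fell. The median difference was 0.46 log2 for the 35 and -0.04 for all. VCX2, a member of the VCX family of X-linked testis genes, rose by 6.32 (SE 0.116, limma adjusted p = 2.97e-18), to a mean of 8.48 in shFHL2, against 2.16 in GFP. CT83 rose by 5.04 (SE 0.0879) and a probe set shared by NXF2 and NXF2B, genes of the mRNA export family, by 4.36 (SE 0.130). CT55 fell by 2.93 on the log2 scale (SE 0.188), and CTAG2, a relative of the antigen NY-ESO-1, fell by 3.32 at one probe set, a floored difference of -1.57. The second CTAG2 probe set averaged 12.11 in shFHL2 and 11.84 in GFP, so the CTAG2 probe sets disagree.

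In shNFYA, 14 of the 35 rose by 2-fold or more and 7 fell, beside 18% and 20.2% of all probe sets, with a median of 0.28 for the 35 and -0.03 for all. Probe sets of SPANXA1 and SPANXA2 rose most, one by 5.48 (SE 0.202, limma adjusted p = 2.62e-14) and another, shared with SPANXC, by 5.35. CT83 rose by 5.09 and CT55 fell by 3.71, a floored difference of -2.23. The shRNA comparisons share the GFP arrays. Compared directly, shFHL2 was higher than shNFYA by 2-fold or more at 10 of the 35 and lower at 2, beside 6.88% and 4.2% of all. The 2 lower ones were the SPANXA probe sets, at -4.55 and -4.25, the same direction as SPANXB1. NXF2 was higher in shFHL2 by 3.98 and VCX2 by 3.46. PAGE5, of PAGE1's own family, differed by 0.22 between shFHL2 and shNFYA (limma adjusted p = 0.125). It rose by 1.12 in shFHL2 and by 0.90 in shNFYA against GFP.

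Within these families, described after their values were seen, the GAGE and SSX probe sets differed. GAGE proteins are small acidic antigens of the same superfamily as PAGE1. All 5 GAGE probe sets fell in shNFYA against GFP, with differences of -2.94 to -2.80 log2, while their differences in shFHL2 were -0.44 to 0.02 and none reached 2-fold. Their levels were 2.36 to 2.93 log2 higher in shFHL2 than in shNFYA. The SSX genes encode nuclear proteins that repress transcription and are known from the fusion gene of synovial sarcoma. All 7 SSX probe sets rose in shFHL2, by 2.34 to 3.93 (highest limma adjusted p = 2.6e-09), and all 7 rose in shNFYA, by 1.38 to 3.17. Among other MAGE-A genes, MAGEA11 rose by 3.21 in shFHL2 and 2.96 in shNFYA, and MAGEA12 averaged 13.38 in shFHL2, 13.67 in shNFYA and 13.41 in GFP. The probe sets of the SSX and GAGE families share sequence within each family and are not independent measurements.

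In PMEL cells 1 of the 35 rose by 2-fold and 1 fell, beside 0.881% and 1.46% of all. The same CTAG2 probe set rose by 1.17 (SE 0.101, limma adjusted p = 1.12e-07), and SSX1 fell by 1.70 on the log2 scale (SE 0.126, adjusted p = 1.93e-08), to a mean of 5.56 in PMEL, against 7.26 in GFP. None of the other SSX probe sets changed by 2-fold in PMEL, and the highest difference among the 7 was 0.39. These counts of 2-fold calls among the 35 were the same in each comparison without replicate 3 of A375M2 PMEL and GFP.

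In C32 shFHL2 against C32 GFP, 0 of the 35 rose by 2-fold and 1 fell, beside 4.03% and 5.02% of all. Of any size, limma called 3 higher and 6 lower, both with Benjamini-Hochberg adjustment and at an unadjusted p under 0.05. With each array centred on its median they were 4 and 5, and 0 fell by 2-fold. No share of all probe sets by direction is given beside these counts of any size. The gene that fell was IL13RA2, a decoy receptor for interleukin 13, by 1.02 on the log2 scale (SE 0.0662, limma adjusted p = 6.01e-10), to 6.49 in C32 shFHL2, against 7.51 in C32 GFP. When the shFHL2 effects of the lines were compared by limma's interaction term, 15 of the 35 were 2-fold or more lower in C32 and 3 higher, beside 17.1% and 18.6% of all. All 7 SSX probe sets were among the lower ones, at -3.92 to -2.25, with SSX differences in C32 itself of -0.50 to 0.09. Of the lower ones, CT83, VCX2, MAGEA11, SAGE1, NXF2, a SPANXA and an SSX3 probe set averaged under log2 4 in both C32 groups. Of the higher ones, CTAG2 and CT55 did so. For these probe sets the interaction restates the A375M2 change and shows no response of C32.

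Between the GFP lines, 23 of the 35 were 2-fold or more lower in C32 and 2 were higher, beside 22.4% and 21.5% of all, and 24.7% and 21.6% of the 603 other X-linked probe sets. The median was -4.95 for the 35 and -0.01 for all. A CT45A family probe set differed by -12.15 and a GAGE one by -11.99. The families were not all lower in C32: SSX1 averaged 8.74 in C32 GFP, against 7.26 in A375M2 GFP.

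**Figure D3:**
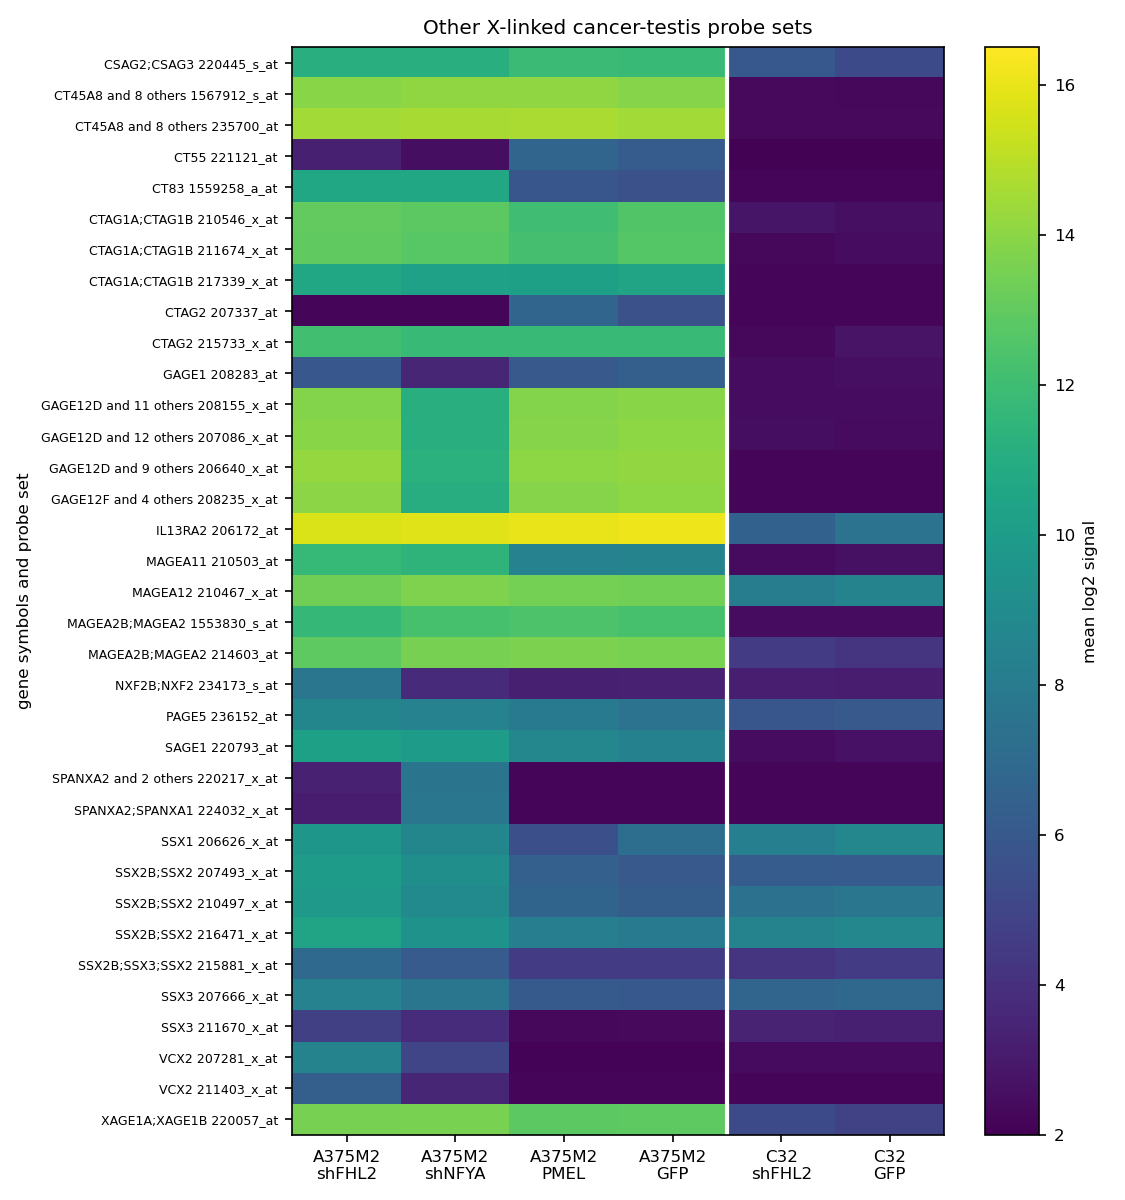
Heat map of the mean log2 signal (colour scale) of the 35 other X-linked cancer-testis probe sets (rows) in the 6 groups (columns). SSX rows are higher in A375M2 shFHL2 and shNFYA than in GFP, GAGE rows are lower in shNFYA than in GFP, and CT45A and GAGE rows are near the low end in C32.

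**Figure D4:**
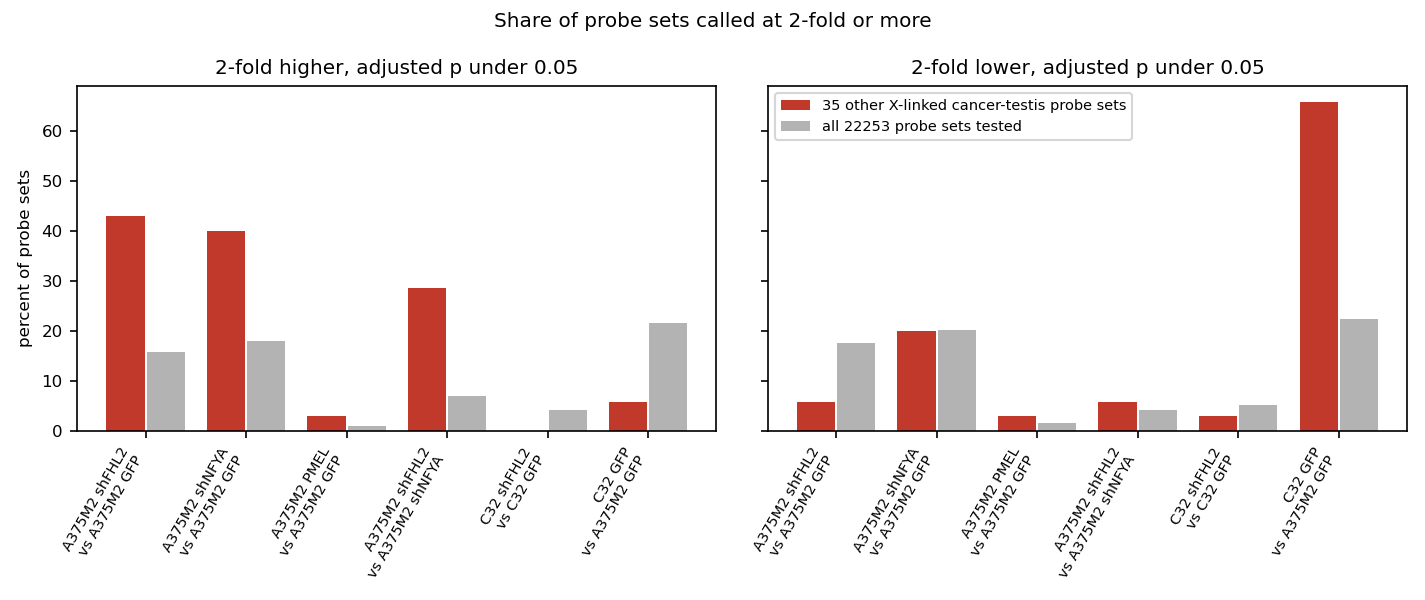
Percent of the 35 other X-linked cancer-testis probe sets and of all 22253 probe sets tested (bar height, from 0) called 2-fold or more higher or lower in 6 comparisons. In A375M2 shFHL2 against GFP, 15 of the 35 were higher, against 15.8% of all probe sets, and in C32 GFP against A375M2 GFP, 23 were lower, against 22.4%. Some of the 35 passed the filter only through groups where they are high.

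Cancer-testis genes outside the X chromosome were measured by 28 probe sets and moved both ways. In shFHL2 8 rose by 2-fold and 9 fell, in shNFYA 7 rose and 10 fell, and in PMEL 1 rose and 0 fell, each against A375M2 GFP and beside the shares of all probe sets given for the same comparisons. Some of those that rose in the shRNA arms likewise averaged under log2 4 in all other groups and had little room to fall. At an unadjusted limma p under 0.05, 8 of the 28 fell in PMEL at any size. The share of all probe sets at that rule is not given, so nothing is read from this count. LEMD1, a LEM-domain protein, rose by 5.78 in shFHL2 (SE 0.112, limma adjusted p = 5.67e-18) and 4.61 in shNFYA. It was already present in C32, at 7.0 in C32 shFHL2 and 6.21 in C32 GFP. BAGE2 fell by 3.14 on the log2 scale in shNFYA and fell by 2.31 in C32 shFHL2 (floored -1.39), and CTNNA2, an alpha-catenin, rose by 1.08 in PMEL. In C32 shFHL2 against C32 GFP, 3 of the 28 rose and 3 fell by 2-fold, beside 4.03% and 5.02% of all probe sets. The largest fall was that of ELOVL4, a very long chain fatty acid elongase, which fell by 3.46 on the log2 scale (SE 0.125), a floored difference of -1.88.

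The broadly expressed MAGE genes and partner genes, 23 probe sets, showed a mixture. In shFHL2, 7 rose by 2-fold and 3 fell, beside 15.8% and 17.5% of all probe sets. In shNFYA 6 rose and 4 fell, beside 18% and 20.2% of all. PRKAA1 and PRKAA2, listed as partners but neither MAGE genes nor ligases, supplied part of these counts. A PRKAA1 probe set rose by 1.88 in shFHL2. In shNFYA a PRKAA2 probe set rose by 2.63 and another PRKAA1 probe set fell by 1.26. TRIM28, the ligase and corepressor bound by MAGEC2, MAGEA3 and MAGEA6, fell by 1.66 on the log2 scale in shFHL2 (limma adjusted p = 4.79e-13, SE 0.0731). In shNFYA it fell by 1.60, with means of 8.96 in shFHL2, 9.01 in shNFYA, 10.63 in PMEL and 10.61 in GFP. In C32 it averaged 8.96 in shFHL2 and 8.57 in GFP, and the C32 effect exceeded that of A375M2 by 2.05. MAGED1, which binds neurotrophin receptors, fell by 1.42 in shFHL2 and fell by 1.86 in shNFYA, both on the log2 scale. MAGEE1, of the dystrophin complex, rose by 2.52 in shFHL2 and 3.31 in shNFYA, or by 1.24 and 2.03 on the floored scale. NDN, an imprinted growth suppressor, rose by 1.88 in shFHL2, and differed by -5.87 between C32 GFP and A375M2 GFP. In PMEL 0 of 23 changed by 2-fold, beside 0.881% higher and 1.46% lower of all probe sets. At an unadjusted limma p under 0.05 there were 1 higher and 7 lower at any size. No share of all probe sets is given at that unadjusted rule, so no direction is read from it.

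Genes that set methylation and chromatin at cancer-testis promoters, or bind their motifs, were followed by 72 probe sets. At any size limma called 60 of them in shFHL2, 63 in shNFYA and 33 in PMEL, each against A375M2 GFP, 47 in shFHL2 against shNFYA, 48 in C32 shFHL2, 60 between the GFP lines and 53 in the interaction, beside the shares of all probe sets given for the cancer-testis genes. In shFHL2 10 rose by 2-fold (13.9%) and 11 fell (15.3%), close to the 15.8% and 17.5% of all probe sets. In shNFYA 5 rose (6.94%) and 14 fell (19.4%), beside 18% and 20.2% of all. HELLS, a helicase needed for DNA methylation, rose at all 4 of its probe sets in shFHL2, by 1.62 to 1.95 (limma adjusted p = 1.67e-08 or lower). The one that rose by 1.65 differed by 1.09 on the floored scale. EHMT2, a histone H3 lysine 9 methyltransferase, fell by 2.31 on the log2 scale in shFHL2 (SE 0.111) and fell by 2.48 in shNFYA. CBX3, a heterochromatin protein, fell by 2.21 in shFHL2 and fell by 2.83 in shNFYA at one of its 4 probe sets. At its brightest it averaged 14.33 in shFHL2, 13.99 in shNFYA, 14.84 in PMEL and 14.75 in GFP. UHRF1, which brings the maintenance methyltransferase to DNA, was 2.36 higher in shFHL2 than in shNFYA (SE 0.0611, limma adjusted p = 2.39e-15). In that direct comparison 9 of the 72 were higher by 2-fold and 0 lower, beside 6.88% and 4.2% of all, while at an unadjusted limma p under 0.05 and any size there were 31 and 17. In C32 shFHL2, 0 rose and 3 fell by 2-fold, beside 4.03% and 5.02% of all, and at an unadjusted p under 0.05 there were 30 higher and 20 lower. In PMEL only another CBX3 probe set rose by 2-fold, by 1.05 (SE 0.177, limma adjusted p = 0.000172), and 0 fell, beside 0.881% and 1.46% of all. At an unadjusted limma p under 0.05 there were 35 higher and 4 lower in PMEL at any size. No share of all probe sets is given for these counts at an unadjusted p, so no direction is read from them. Between the GFP lines, a DNMT3A probe set was 4.24 log2 higher in C32 and EHMT2 differed by -1.78.

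Markers of the lines' own melanocyte lineage, and of other cell types, moved with some of these groups. Of 18 melanocyte probe sets, 10 averaged under log2 4 in shFHL2 and 10 in shNFYA, against 4 in PMEL and 4 in GFP. The log2 of their summed signal was 13.34 in shFHL2, 13.13 in shNFYA, 15.62 in PMEL and 15.71 in GFP, and 15.90 in C32 shFHL2 and 16.88 in C32 GFP. The 2 MLANA probe sets were near the low end in all A375M2 groups (2.16 to 2.38). MITF at its brighter probe set averaged 10.05 in shFHL2, 8.95 in shNFYA, 14.37 in PMEL and 14.24 in GFP. SOX9 at its brighter probe set averaged 2.43 in shFHL2, 2.16 in shNFYA, 10.63 in PMEL and 11.91 in GFP. The SOX10 probe sets disagreed: one lay between 11.79 and 12.88 in the 6 groups, and the other averaged 4.01 in shFHL2, 4.77 in shNFYA, 6.17 in PMEL and 5.94 in GFP. The 5 keratinocyte and epithelial probe sets summed to 13.06 in shFHL2, 12.64 in shNFYA, 11.60 in PMEL and 11.66 in A375M2 GFP. In C32 they summed to 7.53 in shFHL2 and 7.35 in GFP. KRT18 made up most of the A375M2 sums, at 12.76 in shFHL2, 12.12 in shNFYA, 11.34 in PMEL and 11.44 in GFP. KRT14 averaged 2.97, 5.08, 2.49 and 2.49 in the same order. The 8 fibroblast probe sets summed to 9.0 in shFHL2, 8.86 in shNFYA, 10.24 in PMEL and 11.58 in A375M2 GFP. In C32 they summed to 13.05 in shFHL2 and 12.71 in GFP. The part of these shifts in the cancer-testis values was not tested. The germ cell marker SYCP3 was under 4 in every group (1.92 to 2.98).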

How the data were processed

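Gene expression was measured on 18 Affymetrix arrays in 6 groups of 3. The deposited values are log2 signals made by the authors with GCRMA, per the submitters' processing notes (its version is not stated there). The deposited table had 0 missing values and was not rescaled. Array medians ran from 8.03 to 8.20. The table held 23416 probe sets: 58 controls, 20264 with 1 symbol in the platform annotation, 995 with several and 2099 with none. Those reaching log2 4 on 3 or more of 17 arrays were tested (22253, leaving out 1105), and all 9 of the members' passed. Probe sets low in most groups passed through the groups where they are high, so their direction of change is partly set by this filter.

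The 6 groups were modelled together in limma 3.58.1 under R 4.3.3 (lmFit, eBayes with a trend, 11 residual degrees of freedom), with Benjamini-Hochberg adjustment over all probe sets tested in each of 7 comparisons. A call was an adjusted p under 0.05; 2-fold calls are counted beside it. The median SE of a log2 difference was 0.0874 for comparisons of A375M2 groups, 0.0978 for C32 and 0.131 for the interaction, and the number of arrays limits the precision. Pooling the groups assumes one spread. The script was tested on simulated data.

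The members, lists and alternatives were chosen with earlier results of these data known. Named genes are the members; up to 4 rises and 4 falls a comparison in the cancer-testis and regulator lists, and 3 in the broadly expressed MAGE list, among 2-fold calls whose arrays do not overlap; the 3 nearest genes by likeness; and the targeted genes. The family counts, MAGEA11, MAGEA12, PAGE5, SAGE1, an SSX3 probe set, the second CTAG2 probe set and the single cell type markers are outside this rule. So are a HELLS probe set, further probe sets of CBX3, GABPA, SP1 and MBD1, and levels given to place a gene in other groups. All of these were picked once values were known. The 2 probe sets shared between members and list genes were kept with the members. The lists held probe sets for 50 of 119 X-linked and 22 of 75 autosomal cancer-testis genes, 35 of 41 regulators and 16 of 20 MAGE and partner genes. For cell types they held 11 of 13 melanocyte, 5 of 10 keratinocyte and epithelial, 6 of 7 fibroblast and 1 of 16 germ cell markers. Same-numbered arrays of different groups correlated at -0.998 to 0.0972 in their deviations (40 pairs), so numbers do not pair samples. Alternatives were other filters, floors, scalings, one probe set per gene, replicate number as a block, and fits without single arrays. Plots used matplotlib 3.10.9.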

Additional observations from a re-analysis of the deposited data

Results flagged for a closer look

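The results below differed between the lines in the shFHL2 effect, C32 minus A375M2, on the log2 scale. The difference was tested with limma's interaction term for all but PAGE1 and MAGEA1, and each tested one passed at an adjusted p under 0.05. Every one of these values sets C32 against A375M2 and so crosses the array sets. Among cancer-testis genes it was 3.35 for a CTAG2 probe set, 3.22 for a TMEM108 probe set, 2.93 for CT55 and 2.84 for TEX15. With values under log2 4 set to 4 it was 1.57 for CTAG2, 1.24 for TMEM108 and 1.11 for TEX15. It was -6.32 for VCX2, -5.04 for CT83, -4.99 for LEMD1 and -4.87 for ELOVL4. At these probe sets CTAG2, CT55, VCX2 and CT83 averaged under 4 in both C32 groups, so the value restates the A375M2 change. The second CTAG2 probe set averaged 12.11 in A375M2 shFHL2, 11.84 in A375M2 GFP, 2.33 in C32 shFHL2 and 2.77 in C32 GFP. ELOVL4 moved in both lines, up in A375M2 and down in C32.

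Among regulators it was 2.41 for EHMT2 and, at a single probe set each, 2.18 for MBD3, 1.86 for CBX3 and 1.71 for MBD1. It was -2.10 for a GABPA probe set, -1.27 and -1.18 for 2 HELLS probe sets, and -1.19 for an SP1 probe set. Among broadly expressed MAGE genes and partners it was 2.05 for TRIM28, 1.04 for NSMCE1, 1.02 for MAGED1, -2.61 for MAGEE1, -1.88 for NDN and -1.87 for MAGEH1. With values under 4 set to 4 it was -1.24 for MAGEE1 and -0.62 for the second HELLS probe set. MAGEE1 and NDN averaged under 4 in both C32 groups. GABPA, SP1, CBX3 and MBD1 each have a brighter probe set. In A375M2 shFHL2 and GFP, then C32 shFHL2 and GFP, it averaged 10.03, 9.85, 10.39 and 10.29 for GABPA. The values were 9.35, 10.19, 9.32 and 10.21 for SP1, 14.33, 14.75, 14.67 and 14.5 for CBX3, and 9.44, 9.53, 9.8 and 9.57 for MBD1.

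PAGE1 lay higher in every A375M2 shFHL2 array than in GFP and lower in every C32 shFHL2 array, a difference of -6.53. MAGEA1 lay lower in A375M2 shFHL2 and higher in C32 shFHL2, a difference of 1.67, with all MAGEA1 values of C32 under log2 4. For these genes the difference was not tested.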

How the results depend on the processing

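Among the counts of called genes, 364 of the recomputed values stayed within 1.5 times the reported one and 7 did not. The 7 came from keeping one probe set per gene, which leaves 35 regulators in place of 72: 29 called in shFHL2 against GFP (60 reported), 19 in PMEL against GFP (33), 32 in shNFYA against GFP (63), 24 in shFHL2 against shNFYA (47), 22 in C32 shFHL2 against C32 GFP (48), 28 in C32 GFP against A375M2 GFP (60) and 24 for the interaction (53). With an array left out in turn, other cancer-testis calls in these comparisons ran from 49 to 55, 24 to 34, 51 to 55, 39 to 47, 20 to 24, 49 to 51 and 47 to 51, and regulator calls from 55 to 61, 29 to 36, 58 to 63, 44 to 47, 40 to 49, 57 to 61 and 50 to 55. With a replicate block, cancer-testis calls were 52, 32, 55, 44, 23, 50 and 50, and regulator calls 59, 32, 62, 46, 48, 58 and 52; it moved no count by over 1.5 times. Without replicate 3 of A375M2 PMEL and GFP (chosen after seeing the data), cancer-testis calls in PMEL were 23, with 65.2% higher in place of 33 with 54.5% higher; the cause was not tested. Of the members' differences 1266 moved by less than the spread between replicates, and 57 by more. Their sign changed in 12, all of differences of at most 0.18 log2 as reported and 0.1 under the alternative. Of the named genes' values 2936 kept their call, and TMEM108 in shFHL2 lost it with values under 4 set to 4 (-0.09, limma adjusted p = 0.724). Low signals limit all differences under log2 4.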
